A study of Mus musculus with 4 samples.

Results

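T-bet and 9 transcription factors that act upstream of it, with it or downstream of it in T helper 1 (Th1) cells were followed. The cells were mouse CD4+ T cells grown with interleukin-16 (IL-16) or with phosphate-buffered saline (PBS, the vehicle). The genes are Tbx21 (T-bet), Hlx, Runx3, Stat4, Twist1, Bhlhe40, Eomes, Id2, Zeb2 and Prdm1. Each was taken as the row of the deposited table that carries its symbol, and all 10 were among the 26334 rows. Both groups started as naive splenic CD4+ T cells and spent 5 days under Th1-driving conditions, so what differs by label is the addition of IL-16 (2 libraries) or PBS (2 libraries). The sources used here give no strain, sex or age of the mice and no cytokine dose. They also do not say whether a group's 2 libraries are separate cultures or mice, so p-values measure a spread between libraries that may be technical.

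Th1 cells are the CD4+ T cells that secrete interferon-gamma (IFN-γ) against intracellular microbes and tumours. IFN-γ, and IL-12 acting through STAT4, switch on T-bet, a T-box protein that opens and activates Ifng and holds back the programs of other helper lineages. T-bet does this together with a homeobox protein (Hlx) and a Runt-domain protein (Runx3), while Bhlhe40, Id2, Zeb2 and Prdm1 shape the effector state that follows, Eomes is a close relative of T-bet, and Twist1 is known in mouse Th1 cells as a late brake on inflammatory output.

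The source and cell type labels name peritoneal macrophages, but T cell transcripts were abundant in each of the 4 libraries. The median of 13 CD4 T cell markers lay between 141 and 156 FPKM (a level scaled to transcript length and library size, which can be set side by side between genes). The 12 macrophage markers had medians of 0.0234 to 0.0477 FPKM, 11 of them never exceeded 1 FPKM, and Fcgr1 and Timd4 were listed at 0 in every library. Library totals were between 373924 and 391153 FPKM. Read depth cannot be recovered from the values, and counting error is therefore left out. The spread between the IL-16 libraries exceeded that between the PBS libraries, with a median absolute difference of 0.14 against 0.086 on the log2(FPKM + 1) scale. IL-16 replicate 2 stood farther from the PBS libraries (0.21 and 0.22) than IL-16 replicate 1 did (0.14 and 0.15), which was about as far from them as from IL-16 replicate 2.

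The promoters of 4 of the factors are shown first because they set the 2 genes that rose beside a close relative that did not pass the test and a partner whose window matches its own family's motif. The 250 bases upstream of the RefSeq start (GRCm38.p6, 5′ to 3′ on the gene's strand) were searched on both strands for 6 short motifs of factors in the group. These were GGTGTG (T-box), TGTGGT (RUNX; it can overlap the T-box letters), TTCNNNGAA (STAT), CACGTG (the E-box type that Bhlhe40 prefers), CAGGTG (the E-box type shared by E proteins, which Id2 disables, and by ZEB repressors) and GAAAGT (the core of the PRDM1 motif). Capitals mark matches.
Tbx21, chr11:97115332-97115581, minus strand: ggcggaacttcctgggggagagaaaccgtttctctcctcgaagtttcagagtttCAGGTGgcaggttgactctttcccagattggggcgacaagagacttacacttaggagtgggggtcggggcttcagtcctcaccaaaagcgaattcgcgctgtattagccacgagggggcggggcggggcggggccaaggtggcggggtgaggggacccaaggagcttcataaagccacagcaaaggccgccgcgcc
Hlx, chr1:184732494-184732743, minus strand: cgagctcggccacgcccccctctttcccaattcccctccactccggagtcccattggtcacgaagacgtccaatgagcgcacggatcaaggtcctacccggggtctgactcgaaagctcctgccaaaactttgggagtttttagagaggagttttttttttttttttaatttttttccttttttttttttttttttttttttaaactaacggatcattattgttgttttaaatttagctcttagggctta
Eomes, chr9:118477939-118478188, plus strand: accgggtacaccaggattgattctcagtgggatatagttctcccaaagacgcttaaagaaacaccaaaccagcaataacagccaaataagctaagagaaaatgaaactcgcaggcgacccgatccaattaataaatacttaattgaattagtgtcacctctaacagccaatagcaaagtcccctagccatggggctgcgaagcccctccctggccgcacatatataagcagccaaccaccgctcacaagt
Runx3, first of its 2 RefSeq starts, chr4:135120395-135120644, plus strand: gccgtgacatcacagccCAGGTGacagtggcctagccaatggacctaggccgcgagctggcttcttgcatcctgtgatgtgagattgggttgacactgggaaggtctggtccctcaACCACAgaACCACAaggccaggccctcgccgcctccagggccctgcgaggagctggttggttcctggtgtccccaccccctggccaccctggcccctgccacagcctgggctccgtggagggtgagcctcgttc

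The Tbx21 window held 1 match, a CAGGTG at 196 to 191 bases before the start, and the Hlx and Eomes windows held none of the 6 motifs. The first Runx3 window held 1 CAGGTG and 2 RUNX matches (as ACCACA, the other strand of TGTGGT), at 134 to 129 and 126 to 121 bases before the start, and the window of the second Runx3 start held none. RefSeq gave promoters for 9 of the 10 genes, 14 windows in all, with no entry for Bhlhe40. Among these genes CAGGTG was found for 4, the PRDM1 letters for 3, and the T-box, RUNX and STAT letters for 1 each. The T-box and STAT letters were both in Zeb2 windows. Across all 32851 promoter windows of the same length CAGGTG was present in 17.2%, the T-box letters in 16.3%, the RUNX letters in 14%, the PRDM1 letters in 12.3%, the STAT letters in 7.02% and CACGTG in 6.02%. These shares are per window, whereas a gene was counted if any of its windows matched, so they are unlike measures. A match describes these letters in this window and is not a binding site.

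The mean levels of the factors with PBS spanned more than 3 orders of magnitude, down to the untested Twist1. Bhlhe40 and Id2 were the most abundant in every library. With PBS, Bhlhe40 averaged 277 ± 4.82 FPKM and Id2 274 ± 13.6 FPKM (SD, n = 2), and the libraries of these 2 genes overlapped in both groups. A middle tier held Tbx21, Runx3, Stat4, Prdm1 and Hlx at 9.41 to 46.5 FPKM with PBS. Zeb2 and Eomes averaged 1.16 and 1.11 FPKM with PBS and overlapped there, and Twist1 lay lowest. The order of Tbx21 and Runx3 depends on how Runx3 is counted, because the table splits it over 2 rows.

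**Figure D1:**
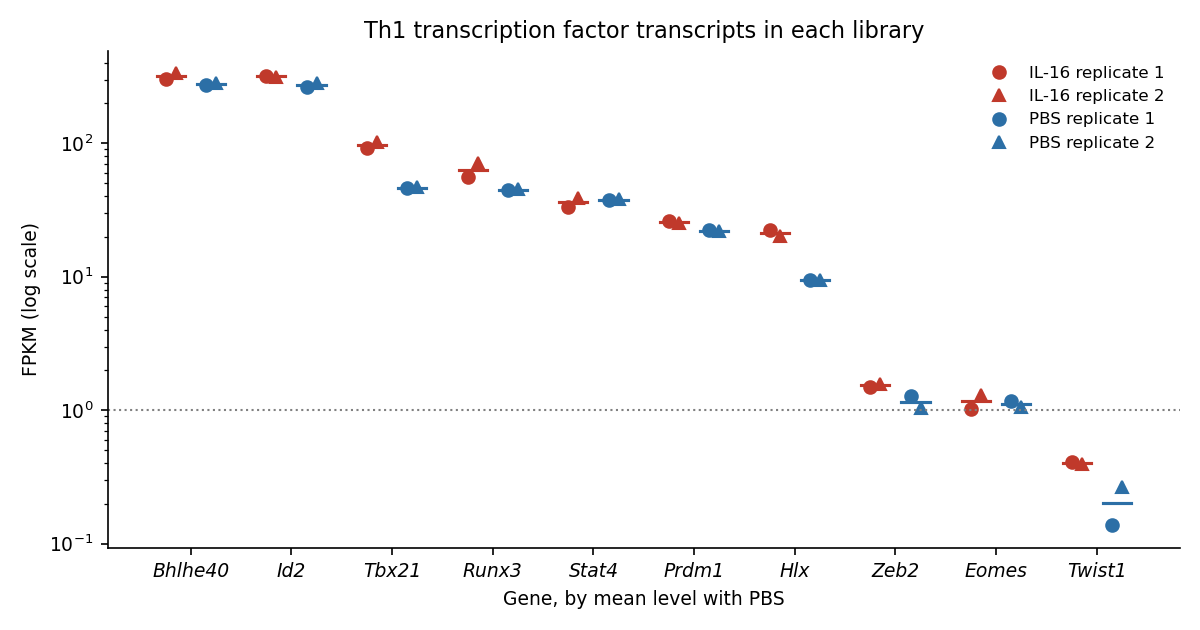
FPKM of the 10 transcription factor genes (log axis) in each of the 4 libraries, IL-16 in red and PBS in blue, with a bar at each group mean and a dotted line at 1 FPKM, the level a row had to reach in at least 2 libraries to be tested. Tbx21 and Hlx show the widest separation among the tested factors, with IL-16 means of 96.5 and 21.3 FPKM and PBS means of 46.5 and 9.41 FPKM.

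Tbx21 and Hlx rose with IL-16, and none of the other tested factors passed the threshold. A row was tested where 2 or more libraries had at least 1 FPKM, which 9 of the 10 genes did. Of these 2 were called higher, 0 lower and 7 did not pass, at an adjusted p under 0.05 in limma on log2(FPKM + 1) over 11882 rows. The same call was made for 0.16% of all tested rows in the higher direction (19 rows) and 0.0589% in the lower (7 rows). Both IL-16 values lay above both PBS values for 7 of the 9 tested factors, against 24.1% of tested rows, and 8 of 9 had a log2 fold change above 0, against 42.2% of tested rows. An unadjusted p under 0.05 was found for 5 of the 9 (Tbx21, Hlx, Runx3, Prdm1 and Id2), against 23.4% of tested rows. The median log2 fold change was 0.22 over the 9 factors and -0.045 over all tested rows.

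Tbx21 encodes T-bet, the factor that directs Th1 differentiation. It stood at 91.3 and 101.7 FPKM in the IL-16 libraries, against 46.1 and 47.0 FPKM in the PBS libraries. Both IL-16 libraries were about double either PBS library, and the groups were far apart relative to the spread within them. The ratio of mean FPKM was 2.07, and the log2 fold change of 1.04 (SE 0.081, 95% interval 0.83 to 1.24, limma adjusted p = 0.0350) was the 52nd highest of the 11882 tested rows.

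Hlx encodes a homeobox factor that in mouse cells cooperates with T-bet to raise IFN-γ output. Its level was 22.5 and 20.2 FPKM with IL-16 and 9.38 and 9.44 FPKM with PBS. The PBS libraries were nearly equal, and both IL-16 libraries were more than double them, with the higher value in the library that had the lower Tbx21. The ratio of means was 2.27, and the log2 fold change was 1.10 (SE 0.090, 95% interval 0.87 to 1.33, limma adjusted p = 0.0358), the 42nd highest of all tested rows.

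The direction and size of both rises held in every fit, but the calls did not. Without PBS replicate 1 the log2 fold change of Tbx21 was 1.02 (adjusted p = 0.171) and without PBS replicate 2 it was 1.05 (adjusted p = 0.148). For Hlx the corresponding values were 1.09 (adjusted p = 0.149) and 1.10 (adjusted p = 0.121). In these fits the lone PBS library is assumed to vary like the IL-16 libraries. Tbx21 had adjusted p of 0.00729 to 0.171 and Hlx of 0.0119 to 0.149 in 13 alternative fits, and each gene passed in 9 of them.

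**Figure D2:**
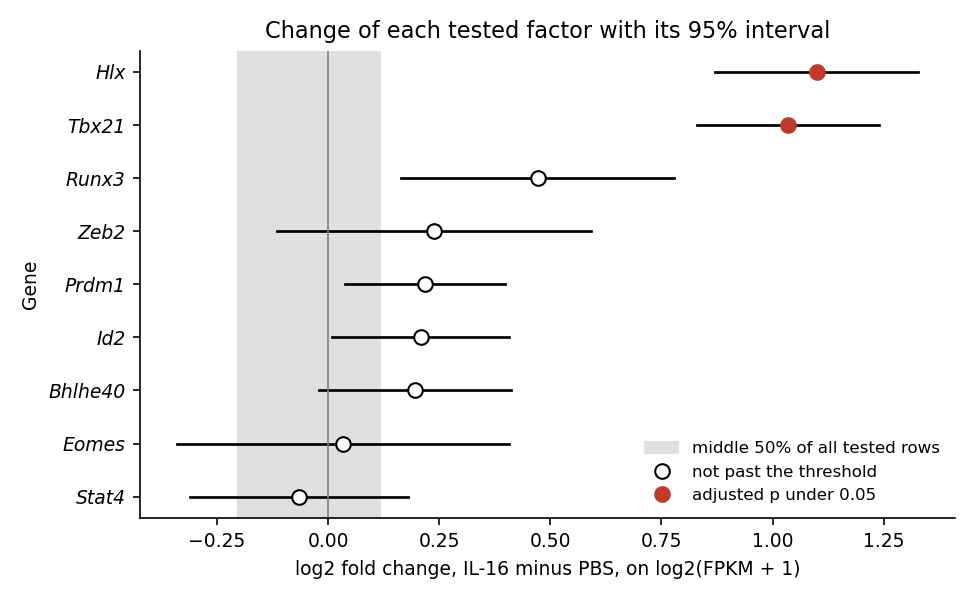
Log2 fold change (IL-16 minus PBS, on log2(FPKM + 1)) of the 9 tested factors with 95% intervals from limma, filled where the adjusted p was under 0.05, and a grey band for the middle 50% of all tested rows (-0.20 to 0.12). Hlx (1.10) and Tbx21 (1.04) stand apart from the other factors, and the intervals of Stat4, Eomes, Zeb2 and Bhlhe40 include 0.

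Runx3, the Runt-domain factor that in mouse Th1 cells binds with T-bet at Ifng and silences Il4, was the nearest of the remaining factors to the threshold. Its row read 55.8 and 70.5 FPKM with IL-16 and 44.8 and 45.2 FPKM with PBS. Both IL-16 values exceeded both PBS values, but the IL-16 libraries lay much further apart than the PBS libraries. This log2 fold change of 0.47 (SE 0.12, 95% interval 0.16 to 0.78) did not pass in limma (adjusted p = 0.130). The difference was called without IL-16 replicate 1, at 0.64 (adjusted p = 0.0119), and was 0.30 without IL-16 replicate 2 (adjusted p = 0.102), with adjusted p between 0.0119 and 0.487 over 13 alternatives. In fits with 1 IL-16 library the spread comes from the PBS libraries alone, which lay closer together, and the lone library is assumed to vary like them. The fit without IL-16 replicate 1 called 2065 of the 11882 rows.

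A second row of the table, Runx3-2, carried nearly the same level. It was 51.8 and 65.4 FPKM with IL-16 and 41.0 and 41.7 FPKM with PBS, and its ratio to the first row was between 0.915 and 0.928 in all 4 libraries. Summed over both rows, Runx3 was 108 and 136 FPKM with IL-16 and 85.8 and 87.0 FPKM with PBS (log2 fold change 0.48, SE 0.12, limma adjusted p = 0.0884). On that sum Runx3 lay above Tbx21 in every library, whereas on the first row alone it lay below Tbx21 in every library. How the authors' counting assigned reads to the rows is not given in the sources used here.

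Stat4, which carries the IL-12 signal to the nucleus, did not differ beyond the spread between libraries. It was 33.1 and 39.0 FPKM with IL-16 and 37.5 and 37.9 FPKM with PBS. The IL-16 values fell on either side of both PBS values. Its log2 fold change was -0.066 with a 95% interval from -0.31 to 0.18 (limma adjusted p = 0.705), and the sign followed the IL-16 library used, at 0.049 without IL-16 replicate 1 and at -0.18 with IL-16 replicate 2 left out, neither of which passed.

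Bhlhe40, a basic helix-loop-helix repressor that sustains IFN-γ and limits IL-10 in mouse Th1 cells, had 302 and 334 FPKM with IL-16 and 274 and 280.4 FPKM with PBS. The groups did not overlap, though the gap was smaller than the distance between the IL-16 libraries. A log2 fold change of 0.19 (SE 0.086, 95% interval -0.021 to 0.41) did not pass in limma (adjusted p = 0.244). It passed without IL-16 replicate 1 at 0.27 (adjusted p = 0.0336; 0.0336 to 0.714 over 13 alternatives), the fit with 2065 calls described for Runx3.

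Id2, which holds E proteins away from DNA and thereby permits effector differentiation, stood at 319 and 314 FPKM with IL-16 and at 264 and 284 FPKM with PBS. The IL-16 libraries were close together and above both PBS libraries. Its log2 fold change was 0.21 (SE 0.079, 95% interval 0.0092 to 0.41, limma adjusted p = 0.203).

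Prdm1, which encodes Blimp-1, a zinc-finger repressor of naive and follicular helper genes, had 26.1 and 25.4 FPKM with IL-16 and 22.2 and 21.9 FPKM with PBS. The libraries within each group were nearly equal and the groups did not overlap. At 0.22 (SE 0.071, 95% interval 0.037 to 0.40) the log2 fold change missed the threshold over all rows (limma adjusted p = 0.170). For Id2 and Prdm1 none of 13 alternatives gave a call.

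Zeb2, a zinc-finger repressor that acts downstream of T-bet in mouse cytotoxic T and NK cells, was 1.5 and 1.58 FPKM with IL-16 and 1.27 and 1.04 FPKM with PBS. The IL-16 values were the higher ones, at a level close to the filter. The log2 fold change on the log2(FPKM + 1) scale, which understates changes at this level, was 0.24 (SE 0.14, 95% interval -0.12 to 0.59, limma adjusted p = 0.347).

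Eomes, the T-box relative that T-bet partners or replaces in cytotoxic and memory cells, was 1.03 and 1.31 FPKM with IL-16 and 1.16 and 1.06 FPKM with PBS. The IL-16 values enclosed both PBS values. Its log2 fold change was 0.034 with a 95% interval from -0.34 to 0.41 (limma adjusted p = 0.908).

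Twist1 was measured near the bottom of the range, at 0.408 and 0.397 FPKM with IL-16 and 0.138 and 0.265 FPKM with PBS. Both IL-16 values were the higher ones, but Twist1 did not reach 1 FPKM in any library and was not tested. The limma fit without the filter on low values, which took in 19465 rows, called 0 of them (3068 at an unadjusted p under 0.05).

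Zeb2 and Eomes are also expressed by other cell types, and so their low levels are set beside the markers of those cells. The 8 NK cell markers summed to between 45.1 and 46.7 FPKM with IL-16 and between 46.0 and 50.3 FPKM with PBS, and 4 of them never exceeded 1 FPKM. These 4 were Ncr1, Klrb1c, Klra8 and Klra4. Klrd1 was the highest of the 8, with up to 17.7 FPKM. The CD8 genes Cd8a and Cd8b1 summed to between 8.63 and 9.99 FPKM with IL-16 and between 8.23 and 8.75 FPKM with PBS. The 12 macrophage markers summed to between 4.27 and 5.57 FPKM with IL-16 and between 3.67 and 4.50 FPKM with PBS, of which Cd68 gave up to 4.88 FPKM. The part of such cells in the Zeb2 and Eomes values was not tested. The 6 B cell markers summed to 2.59 to 3.01 FPKM with IL-16 and 4.04 to 4.77 FPKM with PBS, and the 6 dendritic cell markers to 1.45 to 2.18 FPKM with IL-16 and 1.92 to 2.0 FPKM with PBS. The 6 neutrophil markers summed to 33.4 to 37.3 FPKM with IL-16 and 31.4 to 33.3 FPKM with PBS, with Ly6g at up to 29.7 FPKM and S100a8, S100a9 and Retnlg listed at 0 in every library. The 13 CD4 T cell markers summed to 2289 to 2425 FPKM with IL-16 and 2084 to 2168 FPKM with PBS. The sums of the CD4 T cell and neutrophil markers were higher, and that of the B cell markers lower, in both IL-16 libraries than in both PBS libraries, as Tbx21 and Hlx were higher, and their part in the Tbx21 and Hlx values was not tested. In bulk RNA, fewer cells of a type and less RNA per cell cannot be told apart. In the GENCODE M21 annotation Runx3, Stat4, Bhlhe40, Eomes and Zeb2 overlap genes on the opposite strand, and strand-aware counting is not stated in the sources used here. Whether the values of those 5 factors include reads of the opposite strand is therefore not known here. Tbx21, Hlx, Twist1, Id2 and Prdm1 overlap no annotated gene.

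**Figure D3:**
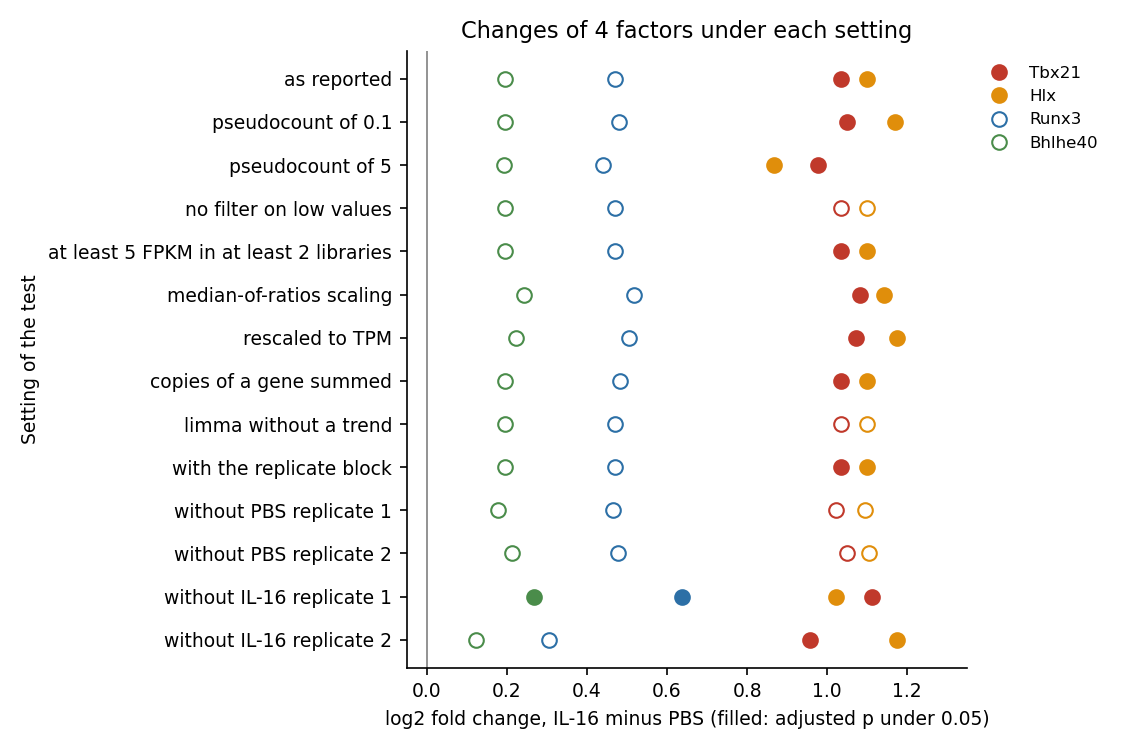
Log2 fold change (IL-16 minus PBS) of Tbx21, Hlx, Runx3 and Bhlhe40 under the reported setting and 13 alternatives, filled where the adjusted p was under 0.05. Tbx21 stays between 0.96 and 1.11 and Hlx between 0.87 and 1.18, while Runx3 (0.30 to 0.64) and Bhlhe40 (0.12 to 0.27) are filled only without IL-16 replicate 1.

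The balance between T-bet and factors that oppose or resemble it moved with Tbx21 itself. Tbx21 was 6.77 and 5.55 times the level of Gata3, the Th2 factor that T-bet restrains, with IL-16, and 2.69 and 2.66 times with PBS. Gata3 itself was 13.5 and 18.3 FPKM with IL-16 and 17.1 and 17.6 FPKM with PBS, so its groups overlapped. Tbx21 was 89.0 and 77.6 times the level of Eomes with IL-16 and 39.6 and 44.2 times with PBS. These ratios and those that follow are given as a description and were not tested.

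Within the other families the ratios lay closer together. Runx3 (first row) was 5.82 and 5.70 times Runx1, the Runt-domain factor of less differentiated T cells, with IL-16 and 4.87 and 4.65 times with PBS. Prdm1 was 6.65 and 5.12 times Bcl6, its antagonist in follicular helper cells, with IL-16 and 4.39 and 4.92 times with PBS. The ratios of Id2 to Id3 and of Zeb2 to Zeb1 overlapped between the groups. Id2 stood 49.6 and 78.9 times above Id3 with IL-16 and 36.1 and 58.3 times with PBS, and Zeb2 was 0.103 and 0.0881 times Zeb1 with IL-16 and 0.0913 and 0.0786 times with PBS. Bhlhe40 had almost no counterpart, since Bhlhe41 did not exceed 0.310 FPKM.

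**Figure D4:**
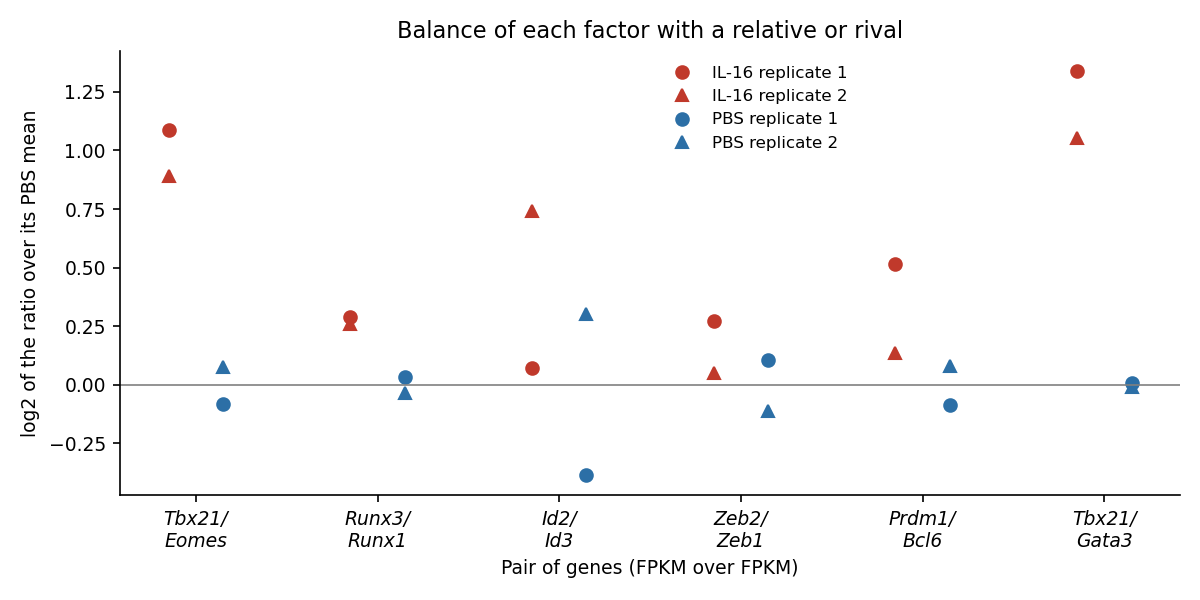
Ratio of each factor to a relative or rival in every library, as log2 of the FPKM ratio over its mean with PBS, IL-16 in red and PBS in blue. Tbx21 over Gata3 and Tbx21 over Eomes are highest with IL-16 (6.77 and 5.55, and 89.0 and 77.6), and Id2 over Id3 overlaps between the groups.

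In a list drawn up for signals that lead to T-bet, no receptor, Janus kinase or STAT gene passed. Of its 18 tested genes 1 rose, 0 fell and 17 did not pass. The gene that rose was Tbkbp1, the neighbour of Tbx21, which encodes a TBK1-binding adaptor. Tbkbp1 was placed in the list as an upstream gene, and that role was not tested. It read 78.2 and 74.8 FPKM with IL-16 and 44.7 and 44.5 FPKM with PBS (log2 fold change 0.76, SE 0.068, limma adjusted p = 0.0405). Its call was lost in 5 of 13 alternatives (adjusted p 0.0116 to 0.232), among them leaving out PBS replicate 1 (0.232) or PBS replicate 2 (0.213) and the replicate block (0.0525). The list's median log2 fold change was 0.099. Its other named genes pointed in opposite directions without passing. Il18r1, the ligand-binding chain of the IL-18 receptor, was 38.1 and 41.3 FPKM with IL-16 and 23.1 and 24.6 FPKM with PBS (adjusted p = 0.0587). Ifngr2, the signalling chain of the IFN-γ receptor, was 8.14 and 8.49 FPKM with IL-16 and 14.2 FPKM in both PBS libraries (adjusted p = 0.0615).

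Of 20 tested genes described as direct T-bet targets 2 rose, 0 fell and 18 did not pass. Ifng, the signature Th1 cytokine, was 120 and 123 FPKM with IL-16 and 58.1 and 53.0 FPKM with PBS (log2 fold change 1.12, limma adjusted p = 0.0329). Furin, a proprotein convertase of activated T cells, was 396 and 387 FPKM with IL-16 and 154 and 155 FPKM with PBS (log2 fold change 1.34, limma adjusted p = 0.0291). Both calls were lost without either PBS library, with adjusted p of 0.119 and 0.121 for Ifng (0.0112 to 0.148 over 13 alternatives) and of 0.121 and 0.114 for Furin (0.00729 to 0.148). Ccl3, a chemokine gene picked out after its values were seen because its difference lies between those of Ifng and Furin, was 16.4 and 18.0 FPKM with IL-16 and 5.78 and 8.79 FPKM with PBS (log2 fold change 1.16, adjusted p = 0.0875). Nkg7, a cytotoxic granule protein gene, was 101 and 104 FPKM with IL-16 and 64.1 and 68.0 FPKM with PBS (adjusted p = 0.0587). The 20 genes had a median log2 fold change of 0.34, with 15 above 0 and a range from -0.38 to 1.34. Both IL-16 values exceeded both PBS values for 12 of the 20 and lay below them for 2, against 24.1% and 34.8% of all tested rows.

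The proteins that bind or modify T-bet had no call among 14 tested genes. Their median log2 fold change was -0.0040, and 4 lay above and 4 below PBS in both IL-16 libraries. Smarca4, the chromatin-remodelling ATPase BRG1, was 34.2 and 36.6 FPKM with IL-16 and 28.9 and 27.9 FPKM with PBS (limma adjusted p = 0.122). Cbfb, the partner subunit of Runx proteins, was 48.6 and 47.3 FPKM with IL-16 and 54.5 and 55.6 FPKM with PBS (adjusted p = 0.179), the opposite side from Runx3.

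Factors of the rival T helper fates had no call among 14 tested genes, with a median log2 fold change of -0.076. Foxp3, the regulatory T cell factor, was 14.4 and 20.0 FPKM with IL-16 and 11.6 and 10.7 FPKM with PBS (limma adjusted p = 0.143). Batf, an AP-1 family factor that Th17 cells need, was 77.0 and 70.1 FPKM with IL-16 and 92.7 and 89.5 FPKM with PBS (adjusted p = 0.129).

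Factors of naive and memory cells, a list that also holds Eomes, had no call among 13 tested genes. Their median log2 fold change was 0.034, the value of Eomes itself. Klf2, a quiescence and trafficking factor, was 10.3 and 9.46 FPKM with IL-16 and 16.3 and 17.4 FPKM with PBS (limma adjusted p = 0.0656). Tcf7, which encodes TCF-1, was 49.4 and 87.5 FPKM with IL-16 and 119 and 122 FPKM with PBS (log2 fold change -0.86, adjusted p = 0.153). The IL-16 libraries differed in Tcf7 more than IL-16 replicate 2 differed from PBS, and the value was -0.46 without IL-16 replicate 1 (adjusted p = 0.0143) and -1.27 without IL-16 replicate 2 (adjusted p = 0.0142), with 0.0142 to 0.478 over 13 alternatives. Foxp1 pointed the other way, at 21.9 and 24.6 FPKM with IL-16 and 16 and 16.5 FPKM with PBS (adjusted p = 0.101).

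Genes that Blimp-1 represses had no call among 8 tested genes, with a median log2 fold change of 0.029. Myc was 79.5 and 114 FPKM with IL-16 and 63.9 and 64.8 FPKM with PBS (limma adjusted p = 0.159). Tcf7, in this list too, lay below PBS in both IL-16 libraries, so the named members were on both sides of 0.

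Paralogues and partners of the factors, Eomes again among them, had no call among 21 tested genes, and their median log2 fold change was 0.057. Stat2, among those with the smallest p, had 46.8 and 44.7 FPKM with IL-16 and 35.8 and 34.0 FPKM with PBS (limma adjusted p = 0.105). Twist2 was listed at 0 in every library. Across these lists some genes occur more than once, so the counts are not independent of each other. Their calls moved with single libraries and with the rows used. Without IL-16 replicate 1 they numbered 12 in each of the first 2 lists and between 3 and 8 in the others, in a fit that called 2065 rows, and every gene named above from the lists by their smallest p passed in it except Cbfb (adjusted p = 0.0664). Without PBS replicate 1 or PBS replicate 2 the lists held 0 calls. With copies of a gene summed into 1 row, the signals held 6 calls (4 higher, 2 lower), the direct targets 4 and the naive and memory factors 1. Of the genes named above, Il18r1 (adjusted p = 0.0308), Ifngr2 (0.0315), Nkg7 (0.0308) and Klf2 (0.0334) were among those gained.

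**Figure D5:**
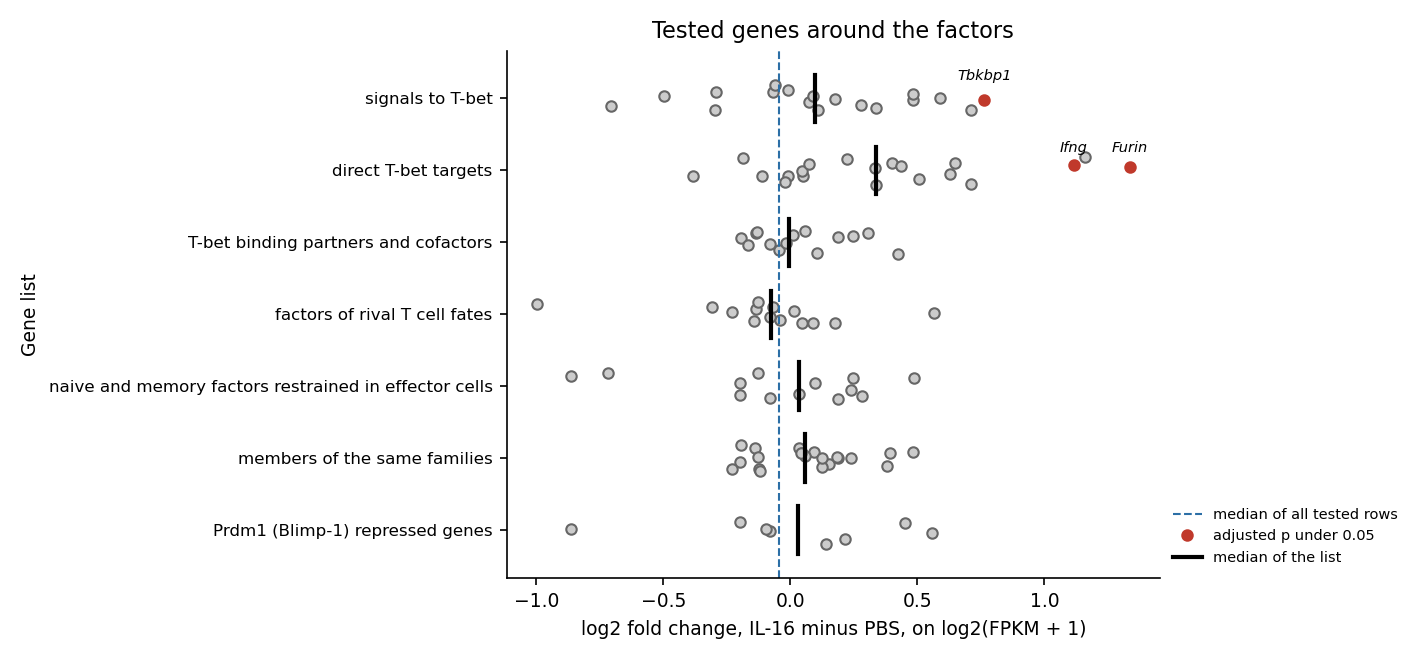
Log2 fold change (IL-16 minus PBS, on log2(FPKM + 1)) of each tested gene in 7 lists around the factors, with a black bar at the median of each list and a dashed line at the median of all tested rows (-0.045). The genes past the threshold are Tbkbp1, Ifng and Furin, and the direct T-bet targets have the highest median, 0.34.

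The genes whose pattern over the 4 libraries lay nearest to that of Tbx21 were Gbp10, Ube2f, Fes, Arsb and Gbp2, by Euclidean distance between centred log2(FPKM + 1) values among 7792 genes with a mean of at least 5 FPKM. The distances were 0.078, 0.087, 0.087, 0.11 and 0.12. Gbp10 and Gbp2 encode IFN-γ-induced guanylate-binding proteins, Ube2f a NEDD8-conjugating enzyme, Fes a tyrosine kinase and Arsb the lysosomal enzyme arylsulfatase B. Gbp10 was 52.2 and 55.5 FPKM with IL-16 and 26.0 and 27.5 FPKM with PBS, and Arsb, which did not pass in limma (adjusted p = 0.0587), was 12.8 and 15 FPKM with IL-16 and 6.63 and 6.94 FPKM with PBS. Gbp10, Ube2f, Fes and Gbp2 rose (limma adjusted p = 0.0350, 0.0329, 0.0359 and 0.0350). All 4 lost the call without PBS replicate 1 (0.131 to 0.229) and without PBS replicate 2 (0.121 to 0.180), Fes also without IL-16 replicate 2 (0.0582), and Gbp2 also with the replicate block (0.0525). Arsb passed without IL-16 replicate 1 (0.0121). Among the other tested factors Hlx lay nearest to Tbx21 at 0.23, rank 25 of all tested rows, and Runx3 followed at 0.58, rank 291. Stat4 lay farthest at 1.10. With 4 libraries, a small distance mostly means a like difference between the groups.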

How the data were processed

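Polyadenylated RNA of 4 libraries was measured (2 with IL-16, 2 with PBS), grouped by sample title. The deposited table holds 1 value per row and library, read as FPKM computed by the authors; the unit is inferred, since no header states it, from fractional values whose column totals differ. Per the submitters' processing notes, fastp, HISAT2, featureCounts and GRCm39 were used; the program behind the deposited values is not stated. Low rows (under 0.2 FPKM, 1443 to 1614 per pair of libraries) showed no steps of whole reads: a window of 0.5% held 1.49% of the ratios at most. Depth is therefore unknown.

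Rows with at least 1 FPKM in at least 2 libraries (11882) were fitted on log2(FPKM + 1) by group in limma (version 3.58.1, R 4.3.3, trend on), two-sided, with Benjamini-Hochberg adjustment over all tested rows and a threshold of 0.05. The code was tested on simulated data. Linear folds are ratios of mean FPKM. From each of 7 lists the genes named are those past the threshold and the 3 with the smallest p, plus those in ratios and the 5 nearest in pattern to Tbx21; some genes this rule names are not reported here. The members, lists and tests were chosen with earlier results of these data known. Promoters are from RefSeq (GRCm38.p6) and gene overlaps from GENCODE M21 (GRCm38), which serve for sequence and names and are of another build than the notes give. Alternatives were the pseudocount (0.1, 5), the filter (none, 5 FPKM), median-of-ratios or TPM scaling, summing copies of a gene, no trend, a replicate block and leaving out each library.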

Additional observations from a re-analysis of the deposited data

How the results depend on the processing

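Of the 9 tested factors, all but Stat4 and Eomes kept a positive log2 fold change in every alternative that tested them. The calls of Tbx21 and Hlx were lost in limma without the filter on low values (adjusted p = 0.148 for both). They were also lost in limma without a trend (adjusted p = 0.0638 and 0.0618) and without either PBS library. The number of factors called was 0 without the filter and 0 without a trend, and ran from 0 to 4 when each library was left out. Over all rows 26 were called. There were 0 without the filter (3068 at an unadjusted p under 0.05, limma), 0 in limma without a trend (2620), 53 with median-of-ratios size factors, 40 on the TPM scale and 126 with copies of a gene summed (73 higher, 53 lower). Leaving out each library gave 9 to 2065 calls, 9 when either PBS library was dropped, 53 when IL-16 replicate 2 was and 2065 when IL-16 replicate 1 was. Leaving out each library gave log2 fold changes of -0.18 to 0.049 for Stat4, positive without IL-16 replicate 1, and of -0.061 to 0.13 for Eomes, negative without IL-16 replicate 2 or PBS replicate 2 (-0.00032). None of these values passed. The causes of these changes were not tested.

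In the labels, samples of the 2 groups are linked only by replicate number. The deviations of IL-16 replicate 1 and PBS replicate 1 from their group means correlated at r = 0.0067 over the 11882 rows, and rows are not independent. With 2 libraries a group, this correlation cannot show whether a mouse, culture or batch was shared. With the replicate block 31 rows were called, 18 of the 26 among them, and 2 factors, Tbx21 and Hlx. Among 24 other genes taken by the naming rule, 258 values kept their side of the threshold, 31 lost a call and 23 gained 1, and none turned its sign. With 2 libraries a group and unknown depth, changes in Twist1, Eomes and Zeb2, at or under 1.58 FPKM, are the least well measured.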
